A study of Mus musculus with 8 samples.

Results

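Wild-type haematopoietic stem cells of mouse fetal liver were profiled on 4 of the 8 arrays of the series, and the genes measured on these 4 arrays are described here with no comparison of genotypes. The arrays were chosen by their genotype label, wild type, and hold 2 numbered samples with 2 arrays each, out of 4 numbered samples in all. Each gene was represented by its brightest probe set with a single gene symbol, which gave 18193 genes. Both samples came from embryos on a C57BL/6 background, and no agent or mutant allele is named for them. The age is entered as 14 dpc in one label and as 14.5 dpc in another, where dpc stands for days post coitum. For each sample, cells of 15 embryos were pooled and sorted by the surface phenotype Sca-1+, Lin-, AA4.1+ and c-Kit++. RNA was amplified from 12 ng with the Ovation system, and the biotin-labelled product was hybridized to Affymetrix mouse expression arrays. The other 4 arrays, which carried RNA of Crebbp+/- embryos, were not used.

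In the mid-gestation embryo the fetal liver is the organ in which haematopoietic stem cells multiply before they settle in the bone marrow. Unlike most adult stem cells they divide actively, and they can form red cells, platelets, myeloid cells and lymphocytes. They are enriched with antibodies to c-Kit (Kit, the receptor for stem cell factor), AA4.1 (Cd93) and Sca-1 (Ly6a), while Lin- means that cells with antigens of mature blood lineages were removed.

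All values are log2 signals made with GCRMA, and a pair of values always gives sample 1 and then sample 2, each the mean of its 2 arrays. The background was read from 77 genes of olfactory, vomeronasal and taste receptors, whose median was 2.28 and whose 95th percentile, 2.47, served as the ceiling. The 27 probe sets for bacterial RNA spikes lay between 2.23 and 2.40, and the dimmest mouse gene lay at 2.11. Both samples exceeded the ceiling for 11009 genes, or 60.5% of all 18193. Neither did for 6416 genes (35.3%), and 768 genes (4.22%) exceeded it in 1 sample only. The upper 10% by mean signal, 1820 genes from 10.16 upward, are called high. These ranks describe signal and not molecules, since the brightness of a probe set depends on its probes as well as on the RNA. Of 6885 genes above background with more than 1 probe set, 39.9% had another probe set at background in both samples.

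The repeat arrays of a sample differed by a median of 0.20 in sample 1 and 0.23 in sample 2, and the 2 samples by 0.30, over the 11777 genes above background in at least 1 sample. A gene is counted as differing between the samples where their means are at least 1 apart on the log2 scale, both arrays of the brighter sample lie above both of the dimmer one, and the brighter mean exceeds the ceiling. This is 1 sample against 1, so no test was possible. By this rule 2.36% of the 11777 genes were higher and 4.35% lower in sample 2. A short list in which no gene differed is therefore not unusual. The labels do not say whether the 2 arrays of a sample came from separate cells, or whether the samples came from separate litters. The 5' minus 3' signal of the Gapdh control, which becomes more negative as RNA is degraded, was -1.22 and -2.59, and that of Actb was -2.13 and -3.19. That of Tfrc was -5.34 and -4.67 on the arrays of sample 1 and -4.23 and -4.32 on those of sample 2. The measure was thus more negative in sample 2 for Gapdh and Actb but not for Tfrc.

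**Figure D1:**
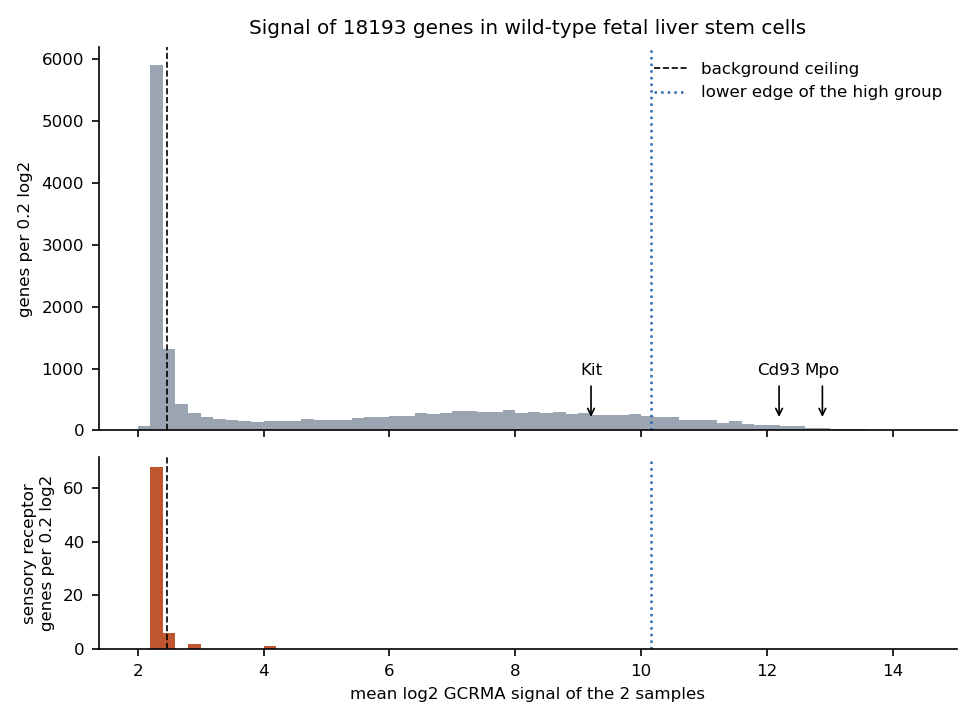
Histogram of the mean log2 signal of 18193 genes (top) and of the 77 sensory receptor genes that set the background (bottom), in steps of 0.2, with the ceiling at 2.47 (dashed) and the lower edge of the high group at 10.16 (dotted). The tallest column lies below the ceiling, genes above it spread over a broad range with a median of 7.49, and arrows mark Kit, Cd93 and Mpo.

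Kit and Cd93, genes of the sort, and the myeloid gene Mpo were bright in both samples, and most measured lineage markers were at background. Kit gave 9.04 and 9.67 on the arrays of sample 1 and 9.08 and 9.02 on those of sample 2, and its mean ranked 3003 of 18193 genes. Its second probe set read 5.63 and 4.21. Cd93, a lectin-like receptor of early progenitors, gave 12.37 and 12.30 and then 12.12 and 11.99, at rank 307. Mpo, the peroxidase of myeloid granules, gave 12.93, 12.87, 12.92 and 12.81, at rank 103. The arrays of the samples overlapped for Kit and Mpo, and those of sample 1 lay above those of sample 2 for Cd93, by less than the limit of 1. Cd34, a sialomucin of stem and progenitor cells, read 11.77 and 11.90. Ly6a, which encodes Sca-1, is not named on a probe set here and gave no value.

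The stretches upstream of Kit, a gene of the sort, and Mpo, a bright myeloid gene, are shown because their promoters differ in CpG content. They are the 150 bases before the annotated start in RefSeq on GRCm38.p6, 5' to 3' on the strand of the gene, at chr5:75574837-75574986 (plus strand) for Kit and chr11:87793634-87793783 (plus strand) for Mpo. Capitals mark matches, on either strand, to any of the 8 motifs searched, and for Kit the capitals are a GC box.
Kit: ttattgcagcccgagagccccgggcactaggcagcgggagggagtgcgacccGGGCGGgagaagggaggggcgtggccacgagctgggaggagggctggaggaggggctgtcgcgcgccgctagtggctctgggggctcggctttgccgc
Mpo: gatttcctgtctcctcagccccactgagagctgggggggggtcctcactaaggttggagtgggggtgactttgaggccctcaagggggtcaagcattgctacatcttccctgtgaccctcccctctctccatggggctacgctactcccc
Over the 300-base promoter, from 250 bases before the start to 50 after it, the ratio of observed to expected CpG was 0.621 for Kit and 0.087 for Mpo. None of the 8 motifs lay in the stretch shown for Mpo.

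Surface markers of stem and progenitor cells exceeded the ceiling in both samples for 17 of 18 measured genes, and 3 were high, Cd93, Cd34 and Ptprc. Ptprc, the common leukocyte antigen CD45, read 10.61 and 10.75, and Cd48, a ligand of the SLAM family, 10.54 and 9.63. Flt3, a receptor tyrosine kinase of multipotent and lymphoid progenitors, read 9.82 and 9.79. Procr, the endothelial protein C receptor, read 8.18 and 7.70, and Slamf1 (CD150), an antigen used to purify stem cells, was dim at 3.37 and 3.73. Thy1 read 3.04 and 2.53, and Cdh5, an endothelial cadherin, 2.40 and 2.58, above the ceiling in 1 sample only. No gene of this list differed between the samples, where 2.36% of the 11777 genes were higher and 4.35% lower. Because a sorted population was measured in bulk, fewer cells that express a gene and less RNA per cell cannot be told apart.

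Of 16 antigens used to define mature lineages 11 were measured, 7 of them at background in both samples. Cd3e (2.21 and 2.21), Cd3d (2.25 and 2.30) and Cd3g (2.27 and 2.27) of the T cell receptor complex were among these, as was Itgam, the Mac-1 chain of granulocytes and macrophages, at 2.29 and 2.29. Cd5 (2.29 and 2.29), Cd8a (2.36 and 2.36) and Ms4a1, or CD20, (2.46 and 2.45) made up the rest of the 7. Adgre1, the macrophage antigen F4/80, read 2.36 and 3.07, and Cd79a, a B cell receptor chain, 2.30 and 2.57, so each exceeded the ceiling in sample 2 only. The exceptions above background in both samples were Il7r, the interleukin 7 receptor of lymphoid progenitors, at 6.55 and 7.67, and Cd4, at 5.09 and 5.23. Il7r was brighter on both arrays of sample 2 (8.06 and 7.28 against 6.79 and 6.32), a difference of 1.12, and among all 11777 genes 2.36% were higher in sample 2 by the same rule. With some single array left out Il7r was no longer counted. Its second probe set read 3.24 in both.

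Transcription factors that specify or maintain blood stem cells were bright as a group. Of 30 measured, 29 exceeded the ceiling in both samples and 12 were high, with a median at percentile 87.0 of all genes. Hmga2, a chromatin-binding protein of fetal stem cells, read 12.99 and 12.40, and Myb, which definitive blood formation requires, gave 12.68, 12.70, 12.68 and 12.71 on the 4 arrays. Etv6 read 12.31 and 11.25, and Lmo2, an adaptor in complexes with Tal1 and Gata factors, 11.88 and 11.92. Mecom, a regulator of stem cell maintenance, read 11.74 and 11.58, with its other probe sets at background. The lowest members were Zbtb16, at 6.09 and 6.02, and Sox17, an endothelial and early fetal stem cell factor, at background with 2.31 and 2.42.

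Gata2 and Etv6 were the members of this list that differed, both lower in sample 2, and 4.35% of the 11777 genes were lower by that rule. Gata2, a zinc finger factor of stem and progenitor cells, gave 11.39 and 11.19 against 10.06 and 10.18, a difference of -1.17. Its second probe set differed by -1.26, from 9.44 to 8.18, so the probe sets moved the same way. Etv6, an ETS repressor needed for stem cell survival, gave 12.27 and 12.34 against 11.20 and 11.29, a difference of -1.06. Its other probe set read 7.07 and 7.09.

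Hox genes were bright from a few positions only. The Hox factors give cells positional identity in the embryo, and Meis and Pbx proteins bind DNA together with them. In the Hoxa cluster 7 of 9 measured genes exceeded the ceiling in both samples, in Hoxb 3 of 9, in Hoxc 1 of 7 and in Hoxd 1 of 8. Of all 41 measured Hox, Meis and Pbx genes 17 did so and 21 were at background, with a median at percentile 28.7. Hoxa9, a factor of stem cell self-renewal, read 11.32 and 11.49, Hoxa10 read 9.30 and 9.43, and Hoxa3 8.54 and 8.17. The cofactors Pbx2 (11.12 and 11.01) and Pbx3 (8.87 and 9.20) were bright, and Meis1 read 7.99 and 7.52. Hoxb2 (2.22 and 2.25) and Hoxb6 (2.24 and 2.25) were the lowest members. Hoxd genes other than Hoxd8, at 2.52 and 2.58, were at background in both samples.

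Of 20 genes of this list above background in at least 1 sample, 3 differed, all lower in sample 2. Over all 11777 genes, 4.35% were lower and 2.36% higher. Pknox1, a homeodomain cofactor of the Meis group, gave 7.87 and 7.78 against 2.91 and 3.64, a difference of -4.55, the largest of any gene in that direction. Its other probe sets differed by -2.75 (6.23 to 3.48) and -1.01 (3.65 to 2.64), so all 3 were lower in sample 2. Hoxb4, known for expanding stem cells when overexpressed, gave 7.11 and 6.99 against 6.20 and 5.85, a difference of -1.02 that falls short of the limit when some single arrays are left out. Pbx4 read 5.62 and 4.48, a difference of -1.14.

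Factors of the blood lineages were already above background for most branches. All 13 measured myeloid factors exceeded the ceiling in both samples. Egr1, an immediate early factor, read 11.72 and 12.30, Runx1 10.43 and 9.93, Myc 9.63 and 9.69, and Gfi1, a transcriptional repressor that neutrophil formation requires, 9.46 and 9.09. Cebpa, the factor of granulocyte and monocyte commitment, read 8.68 and 9.28, and Spi1 (PU.1) 6.47 and 7.36. Cebpd, at 4.80 and 5.45, and Egr2, at 3.42 and 6.07, were lowest.

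Of 18 erythroid and megakaryocytic factors 17 were above background in both samples, 6 of them high. Bcl11a, the repressor of embryonic globin genes, read 11.23 and 11.16, and Bach1, a haem-sensing repressor, 11.05 and 11.02. Tal1 read 9.06 and 9.16. The factors that drive terminal red cell formation were dim, with Gata1 at 3.82 and 4.32, Sox6 at 2.57 and 2.80, and Klf1 at background with 2.26 and 2.26. None of these 18 differed between the samples, where 2.36% of the 11777 genes were higher and 4.35% lower.

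Lymphoid factors were mixed, with 14 of 18 above background in both samples and a median at percentile 57.6. Sox4 (12.12 and 12.00) and Ikzf1 (11.29 and 11.36), needed early in lymphoid development, were high. Pax5 and Ikzf3, of committed B cells, were at background with 2.24 and 2.24 and with 2.33 and 2.33, and Gata3 and Bcl11b, of T cells, exceeded the ceiling in sample 2 only, at 2.54 and 2.50. Ebf1, the factor of B cell commitment, gave 5.59 and 4.74 against 7.43 and 7.59, a difference of 2.34 with no overlap. Its other 4 probe sets lay between 2.24 and 2.98 and differed by no more than 0.01, so the difference rests on 1 probe set. Id2, an inhibitor of E proteins, differed by 1.01 (7.64 and 8.66). Notch1, the receptor that commits cells to the T lineage, gave 11.00 and 10.64 against 9.34 and 9.29, a difference of -1.51, while its second probe set read 5.54 and 5.92.

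Factors of tissues other than blood served as a contrast, and 16 of 20 were at background in both samples. Nkx2-1 (lung and thyroid), Nkx2-5 (heart) and Foxa2 (endoderm) read 2.23 in both samples, and the pluripotency factor Pou5f1 read 2.29 in both. Pax6 (2.40 and 2.93), Myod1 (2.30 and 2.67) and Cdx2 (2.48 and 2.31) exceeded the ceiling in 1 sample only. The exception was Hnf4a, a nuclear receptor of hepatocytes and gut, at 9.29 and 9.46 on its brightest probe set. Its other probe sets read 4.83 and 5.03, 2.39 and 2.39, and 2.48 and 2.28. The brightest probe set differed by 0.16 between the samples, and the source of its signal was not tested.

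Chromatin regulators were above background in both samples for all 33 measured genes, 10 of them high, with a median at percentile 86.0. The DNA methyltransferases led, with Dnmt1, which copies methylation at replication, at 12.52 and 12.88, Dnmt3a at 12.23 and 12.03, and Dnmt3b at 11.63 and 11.87. Crebbp, the acetyltransferase that the study deletes in its other embryos, read 12.07 and 11.41, and its paralog Ep300 9.14 and 9.19. Of the polycomb group, Suz12 read 11.51 and 10.96 and Ezh2 10.37 and 10.52, while the alternative methyltransferase Ezh1 was lower at 6.02 and 6.49. Ring1, at 6.21 and 6.09, and Tet3, at 5.34 and 6.08, were the lowest. Of the 33 genes 3 were counted as lower in sample 2 and 0 as higher, where the shares over all 11777 genes were 4.35% and 2.36%. Kmt2a (MLL1), a methyltransferase that sustains Hox expression, gave 10.12 and 10.40 against 8.89 and 8.85, a difference of -1.39, and its second probe set differed by -0.87. Tet1, a methylcytosine oxidase, differed by -1.48 (8.91 and 7.44), and its other probe sets by -0.12, -0.47 and -0.27. Dot1l, a methyltransferase of histone H3, differed by -1.27 (9.39 and 8.12), and its second probe set by -0.17.

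**Figure D2:**
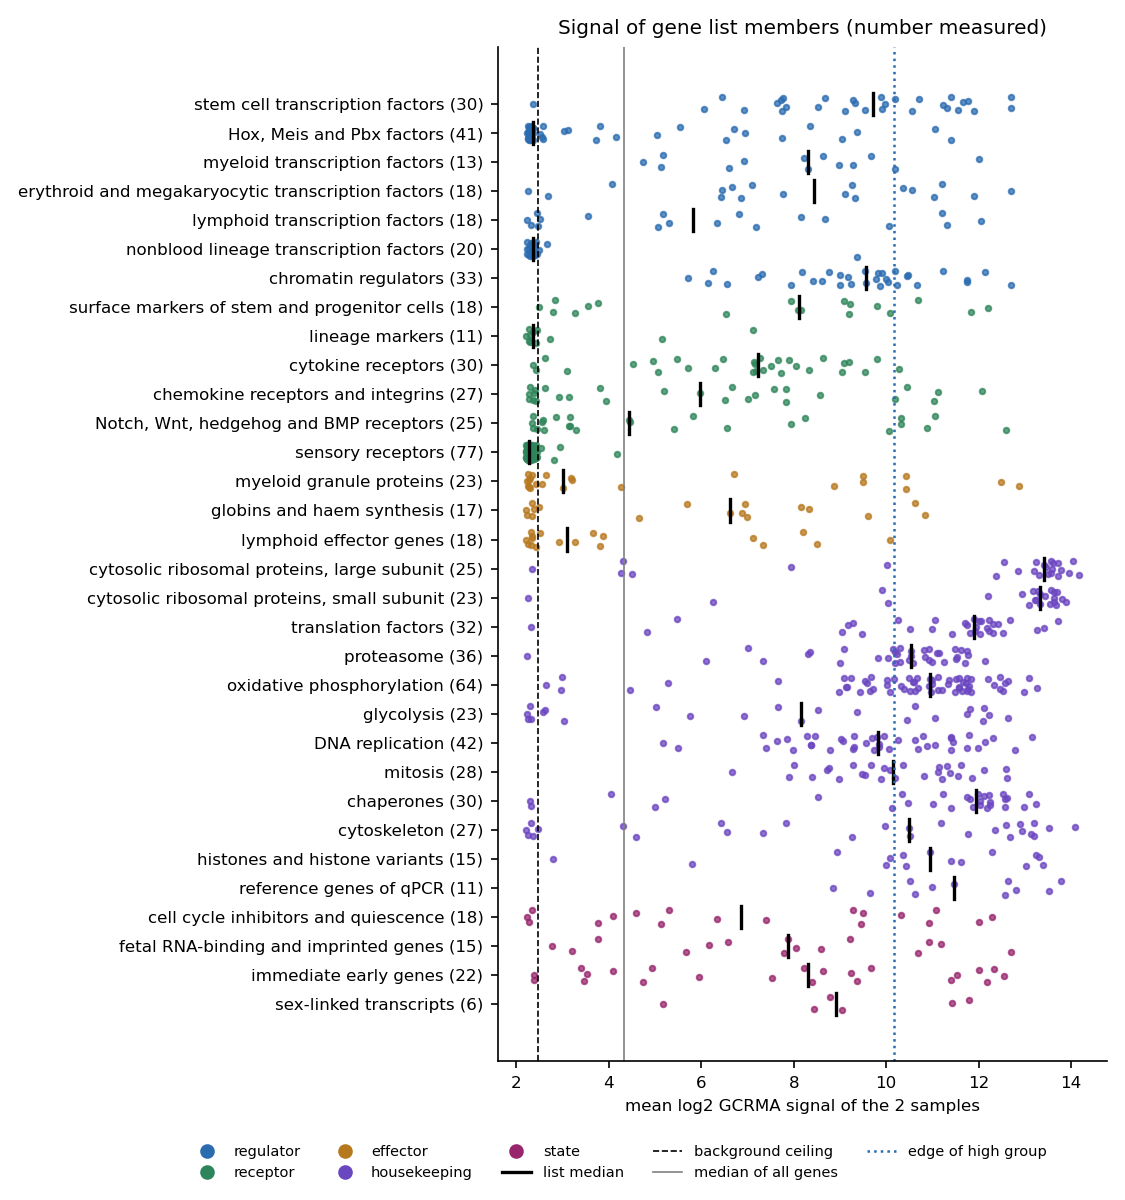
Mean log2 signal of each measured gene (points) and of the list as a whole (black bar, median) for lists of regulators, receptors, effectors, housekeeping genes and cell state, with the number measured in brackets. Ribosomal, translation and chaperone genes lie mostly right of the edge of the high group at 10.16, while Hox factors, factors of other tissues and lineage markers have medians below the ceiling of 2.47. The sensory receptors set that ceiling, so their median lies below it by construction.

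Receptors covered a wide range. Of 30 cytokine and growth factor receptors 28 exceeded the ceiling in both samples, with a median at percentile 67.4, and only Csf1r was high. Csf1r, the receptor for macrophage colony-stimulating factor, gave 10.13 and 9.49 and then 10.67 and 10.85, a difference of 0.95. Tgfbr1 and Kit, at 9.66 and 9.43 and at 9.36 and 9.05, followed Flt3. Epor, the erythropoietin receptor, was close to background at 2.56 and 2.69, and Lifr and Osmr, receptors of the interleukin 6 family, were at background with 2.43 and 2.42 and with 2.32 and 2.38.

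Members of this list differed in both directions, 3 each, where 2.36% of the 11777 genes were higher and 4.35% lower. Igf1r, the receptor for insulin-like growth factors, gave 9.91 and 10.27 against 7.67 and 8.30, a difference of -2.10. Its next probe sets differed by -0.70 (6.40 to 5.70) and by 0.52 (3.72 to 4.24), and so did not move together. Il6st, the shared signalling chain of the interleukin 6 family, differed by -1.28 and at its second probe set by -1.25. Ifnar1, a chain of the interferon alpha and beta receptor, differed by -1.19 (8.32 and 7.13). Its partner Ifnar2 differed by 1.01 (6.77 and 7.78), with the next probe sets at -0.22 and 0.20. Csf2ra, the binding chain for granulocyte-macrophage colony-stimulating factor, gave 6.21 and 6.57 against 7.88 and 7.95, a difference of 1.52, and its second probe set differed by 0.64. Il7r, given above, was the third gene higher in sample 2.

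Of 27 homing receptors and integrins 20 were above background in both samples, where 60.5% of all 18193 genes were. None differed between the samples, where 2.36% of the 11777 genes were higher and 4.35% lower. Cxcr4, which retains stem cells near the chemokine Cxcl12, read 12.12 and 12.04. The integrin chains Itga4 (11.17 and 11.08) and Itga6 (11.22 and 10.86) and the hyaluronan receptor Cd44 (10.84 and 10.05) were high. Itga2, a collagen receptor chain of platelets, was at background with 2.26 in both samples, as was Cxcr5, of B cells, with 2.27. Ccr9, a receptor of thymus-seeding progenitors, read 7.38 and 6.66.

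Receptors of the Notch, Wnt, hedgehog and BMP pathways included 5 high genes among 25, with 20 above background in both samples. Notch2 was brightest at 12.67 and 12.50, followed by the Wnt coreceptor Lrp6 (11.26 and 10.87), the activin receptor Acvr2a (10.87 and 10.92) and Ptch1, the hedgehog receptor (10.47 and 10.19). Bmpr1b (2.36 and 2.37), Notch4 (2.36 and 2.37) and Fzd10 (2.36 and 2.30) were at background. Notch3 differed by -1.23 (6.03 and 4.80) and at its second probe set by -1.41. With some single array left out it was no longer counted.

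Myeloid granule proteins, made in waves with primary granules first and secondary granules later, ranged from high to background. Beside Mpo, Srgn, the proteoglycan core of granules, read 12.60 and 12.38, Prtn3 (proteinase 3) 10.26 and 10.62, Lyz1 10.14 and 10.72, and Ctsg (cathepsin G) 9.51 and 9.49. Elane, neutrophil elastase, was dim at 4.10 and 4.41. The secondary or later granule genes Camp (2.28 and 2.28), Ngp (2.25 and 2.25), Lcn2 (2.30 and 2.30) and Mmp8 (2.23 and 2.23) were at background, as were the eosinophil genes Epx (2.24 and 2.24) and Prg2 (2.29 and 2.29). Of 23 measured genes 13 exceeded the ceiling in both samples, where 60.5% of all 18193 genes did. None differed between the samples, where 2.36% of the 11777 genes were higher and 4.35% lower.

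Of 17 measured genes of globins, haem synthesis and iron import, 11 exceeded the ceiling in both samples and 5 were at background. Urod, a decarboxylase of haem synthesis, read 10.98 and 10.69, and Tfrc, the transferrin receptor, 10.63 and 10.61. Ppox and Alad read 7.90 and 8.75 and 8.08 and 8.25. Alas2, the red cell form of the first enzyme of the pathway, was at background at 2.20 and 2.20, and the general form Alas1 read 5.74 and 5.65. The embryonic globins Hba-x (2.22 and 2.22), Hbb-bh1 (2.29 and 2.37) and Hbb-y (2.42 and 2.36) were at background. Hba-a2, an adult alpha-globin gene, read 10.10 and 9.12, whereas Hba-a1, which encodes the same chain, read 2.34 and 2.34, and the probe sets that name both genes lay at or near background. The probe set that names several adult beta-globin genes together was left out of the 17 and read 9.77 and 9.65. Globin genes are near-identical copies and the probe sets can share their RNA, so these values are uncertain for the single genes.

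Of 18 lymphoid effector genes 10 were above background in both samples, a share near the 60.5% of all 18193 genes. Their median lay at percentile 44.5, and none was in the high group, which holds 10% of all genes. Btk and Syk, kinases of antigen receptor signalling that myeloid cells also use, read 10.08 and 10.07 and 8.28 and 8.74. Cd79b read 8.19 and 8.20 although its partner Cd79a was near background. Rag1, the recombinase of antigen receptor genes, read 3.27 and 2.59, and Dntt, which adds bases at the joins, 2.30 and 2.31. Gzmb (2.25 and 2.25) and Cd3e were lowest. Ighm, the immunoglobulin mu chain, differed by 1.42 (6.62 and 8.04) on 1 of its 11 probe sets, and the next brightest read 5.16 and 5.17.

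Housekeeping families filled the top of the range. Of the 20 brightest genes 11 encode ribosomal proteins, led by Rpl35 at 14.06 and 14.30, with Rpl41 (14.12 and 13.97), Rplp2 (14.03 and 13.89), Rps29 (13.82 and 13.96), Rpsa, Rpl13a, Rpl7a, Rpl4, Rps3a1, Rps3 and Rps18 behind. The others were Cfl1 (cofilin, which severs actin filaments, at 14.01 and 14.18), Ywhae, Sephs2, Stmn1 (stathmin, a microtubule regulator), Sod1 (superoxide dismutase), Mrfap1, Ran (the GTPase of nuclear transport), Eef1a1 (elongation factor) and Lgals1 (galectin). All 20 had a mean of at least 13.63, and none differed between samples by more than 0.26.

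Of the cytosolic ribosomal proteins, the large subunit had 19 high genes of 25 measured and the small subunit 19 of 23, each with a median at percentile 99.8 and no gene that differed. A further 22 and 5 listed genes had only probe sets naming several genes, because ribosomal protein genes have many processed copies, and were left out. The members at background were Rpl3l, a form of muscle, at 2.33 and 2.33, and Rps16, at 2.25 and 2.25. Rps16 is a core subunit and had a single probe set, so its background reading describes that probe set. Rpl37 (4.08 and 4.44) and Rps27 (6.16 and 6.35) were also far below the other core subunits. Rpl39l, a testis form, read 4.33 and 4.27.

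The stretch before the start of Rpl35 is shown as that of the brightest gene, at chr2:39005132-39005281 on the minus strand of GRCm38.p6. Its capitals mark an ETS-type motif (CCGGAAGT, read on the other strand), GC boxes (GGGCGG, on either strand) and a CCAAT box on the other strand.
Rpl35: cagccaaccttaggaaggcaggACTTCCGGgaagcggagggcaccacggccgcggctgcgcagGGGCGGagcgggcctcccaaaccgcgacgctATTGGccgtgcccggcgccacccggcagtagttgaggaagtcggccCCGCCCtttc
The ETS-type motif lay in 21.7% of 23 promoters of the large subunit and in 25% of 20 of the small subunit, against 4% of all 27025 promoters in the table. Among promoters of all high genes the share was 9.59%.

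Other housekeeping families ranked high as well. Of 32 translation factors 25 were high, led by Eef1a1 (13.69 and 13.75), Eif5a (13.32 and 13.49), Eef1b2 (13.24 and 13.29) and Eef1d (12.54 and 12.80). Eef1a2, the form of muscle and nerve, read 4.74 and 4.93, and Eif4a3 was at background with 2.31 and 2.32. Eif5a2, a second form of Eif5a, differed by -1.64 (6.29 and 4.66), with its other probe set at 0.05. Of 30 chaperones 23 were high, led by Hspa8 (13.18 and 13.30), Hsph1 (13.12 and 13.07) and the chaperonin subunits Cct3 (12.92 and 13.06) and Cct2 (12.57 and 12.65). Of 36 proteasome subunits 25 were high, led by Psmd6 (12.12 and 12.16), Psmb3 (11.54 and 12.01), Psma3 (11.77 and 11.71) and Psmc6 (11.68 and 11.74). Psmd7 was the only one that differed, by -1.36 (7.68 and 6.32), with its other probe sets at -0.24 and -0.15. These families make, fold and degrade proteins. Of 64 genes of oxidative phosphorylation 44 were high, led by Cox7a2 (13.31 and 13.20), Cox5b (12.96 and 13.23) Atp5a1 (12.93 and 13.03) and Atp5g3 (12.63 and 12.64), and none differed. Of 11 genes often used as qPCR references all were above background and 9 were high, with Rpl13a (13.70 and 13.84), Actb (13.49 and 13.55) and B2m (12.95 and 12.66) and Pgk1 on top. Tbp (9.28 and 8.41) and Polr2a (9.48 and 9.82) were the lowest of these.

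Some dim members of these families are forms known from other tissues, while core members such as Rps16 and Eif4a3 were dim too. Psmb11, the proteasome subunit of thymic cortex, read 2.24 and 2.24, and the testis subunit Psma8 6.10 and 6.10. Among glycolytic enzymes, the testis forms Pgk2 (2.32 and 2.32), Ldhc (2.29 and 2.29) and Gapdhs (2.24 and 2.24) and the muscle form Pgam2 (2.24 and 2.26) were at background, against Pgk1 at 12.61 and 12.68, Ldha at 12.11 and 12.36 and Pgam1 at 11.84 and 11.79. The glucose transporter Slc2a1 (12.31 and 11.91) and Aldoa (11.98 and 12.19) were also among the brightest of 23 glycolytic genes, 9 of which were high. In oxidative phosphorylation, the testis cytochrome Cyct (2.37 and 2.91) and the muscle form Cox7a1 (2.87 and 3.06) were lowest. The testis chaperones Hspa1l (2.29 and 2.29) and Cct6b (2.32 and 2.32) and the muscle actins Acta1 (2.25 and 2.25) and Actc1 (2.31 and 2.31) were at background too. These forms were picked out after their values were seen.

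The cytoskeleton list held 14 high genes of 27, with Actb, Tubb5 (13.20 and 13.20) and the thymosin Tmsb4x (13.25 and 13.14) behind Cfl1. The tubulins Tubb2b (3.77 and 5.39, difference 1.62) and Tubb2a (6.78 and 7.88, difference 1.11) were higher in sample 2. Among 15 histones, variants and histone-binding proteins all were above background, and Npm1 (13.37 and 13.42), Hmgn1 (13.23 and 13.37), H2az1 (13.13 and 13.35) and Set (13.25 and 12.79) led. H1f2, a linker histone, differed by 1.11 (10.40 and 11.52) and by 1.35 and 0.43 at its other probe sets. H3f3a (5.82 and 5.80) and H1f10 (2.65 and 2.95) were lowest. Tubb4a, a brain tubulin, was the dimmest cytoskeletal gene at 2.20 and 2.20.

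Genes of the cell cycle were bright. All 42 measured DNA replication genes were above background in both samples, 17 of them high. Fen1, the flap endonuclease, read 13.01 and 13.31, Rrm2, a subunit of ribonucleotide reductase, 12.72 and 12.86, Pcna, the sliding clamp, 12.39 and 12.23, and the helicase subunit Mcm4 11.92 and 12.38. Tyms, at 5.22 and 5.13, was lowest. Orc1, of the origin recognition complex, read 4.73 and 6.27, a difference of 1.53, but its second probe set differed by -0.90 (5.77 and 4.88). All 28 mitotic genes were above background as well, 14 of them high, and none differed. Cks1b, a partner of cyclin-dependent kinases, read 12.41 and 12.81, Incenp 12.35 and 12.86, Birc5 (survivin) 12.35 and 11.89, and Cks2 11.81 and 11.90. The proliferation marker Mki67 read 11.54 and 11.56, and Plk1 and Ccnf were lowest at 6.69 and 6.66 and at 7.61 and 8.20.

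The promoters of Cdk1, the kinase that drives mitosis, and Ccnb2, its cyclin, are shown because the CCAAT box, the motif of nuclear factor Y, was frequent in this family. They lie at chr10:69352913-69353062 and chr9:70421555-70421704, both on the minus strand of GRCm38.p6, and capitals mark CCAAT on either strand and GC boxes.
Cdk1: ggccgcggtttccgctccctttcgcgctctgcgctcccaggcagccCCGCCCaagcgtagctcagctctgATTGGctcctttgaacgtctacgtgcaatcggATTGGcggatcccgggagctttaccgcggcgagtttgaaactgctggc
Ccnb2: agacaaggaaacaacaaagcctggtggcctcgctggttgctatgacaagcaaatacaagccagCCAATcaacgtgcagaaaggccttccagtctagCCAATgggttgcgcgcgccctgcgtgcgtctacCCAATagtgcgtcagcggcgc
Cdk1 read 11.52 and 11.26, and Ccnb2 9.61 and 9.74. CCAAT lay in 87.0% of 23 promoters of mitotic genes, in 67.6% of 34 of replication genes and in 76.9% of 26 of chaperones, against 37.9% of all 27025 promoters. None of the 23 mitotic promoters held the TATA motif TATAAA, which 14.2% of all promoters held. The share for TATAAA was lower among expressed genes, at 7.10% for high genes and 6.66% for others above background in both samples. For CCAAT these shares were 40.2% and 38.6%.

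Inhibitors of the cell cycle were spread over the whole range. Foxo3, a factor of stem cell quiescence, read 12.30 and 12.30, Egr1 11.72 and 12.30, Txnip 11.36 and 10.78, and Ndn, an imprinted growth repressor, 10.72 and 11.12. Cdkn1b (p27) read 9.59 and 9.32, and Cdkn1c (p57), an imprinted inhibitor linked to adult stem cell quiescence, 4.27 and 3.28. Cdkn2a (2.29 and 2.27), Cdkn2b (2.33 and 2.33) and Cdkn2c (2.21 and 2.24) were at background. Of the 15 members above background 13 were lower in sample 2, with a median of -0.41 (-0.54 without array 1 of sample 2 and -0.21 without array 2 of sample 2), where all 11777 genes had a median of 0.01 with 6110 positive and 5667 negative. Cdkn1a (p21), at 5.23 and 3.95, and Rbl2, at 5.71 and 4.54, passed the limit for a difference, with -1.28 and -1.17. By the same rule 4.35% of all 11777 genes were lower.

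Fetal RNA-binding and imprinted genes, which mark the fetal programme, were above background in both samples for 14 of 15. After Hmga2, the brightest were Grb10 (11.36 and 11.01), Ndn and Igf2bp3 (10.51 and 10.86), an oncofetal RNA-binding protein. Igf2 read 8.18 and 7.56 and Dlk1 8.04 and 8.05. Lin28b and Lin28a, blockers of let-7 maturation, were the lowest, with 3.05 and 2.50 and with 3.98 and 2.42. Lin28a differed by -1.56, and its value in sample 2 lay below the ceiling, so the size of the difference is uncertain. Both X- and Y-linked transcripts were bright, with Xist at 11.78 and 11.79, Eif2s3x at 11.41 and 11.43, Eif2s3y at 8.91 and 9.18 and Kdm5d at 8.26 and 8.62, in samples that pool 15 embryos. Uty, also on the Y chromosome, was lowest at 4.84 and 5.49.

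The largest differences toward sample 2 were those of liver transcripts. By the rule above, 278 genes were higher in sample 2 (2.36%) and 512 were lower (4.35%). Quantile normalization of the 4 arrays gave 370 and 420, so the split between directions depends on scaling. With 1 array left out, fewer arrays have to be separated, and the higher count became 465 without array 1 of sample 1, 461 without array 1 of sample 2 and 488 without array 2 of sample 2. When all probe sets of a gene were averaged, the counts were 126 higher and 222 lower. Only 95 of the 278 and 246 of the 512 were called whichever single array was left out.

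The probe sets of a gene often disagreed. Of the 160 genes higher in sample 2 with another probe set above background, all of the others had the same sign for 95 (59.4%) and the opposite sign for 32. Among 293 such lower genes these numbers were 131 (44.7%) and 93. Genes lower in sample 2 had a median span in the genome of 39.4 kb, those higher 17.6 kb and those that did not differ 22.8 kb. The 5' minus 3' signals of Gapdh and Actb differed between the samples in the same comparison, as given above, and their part in these counts was not tested.

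**Figure D3:**
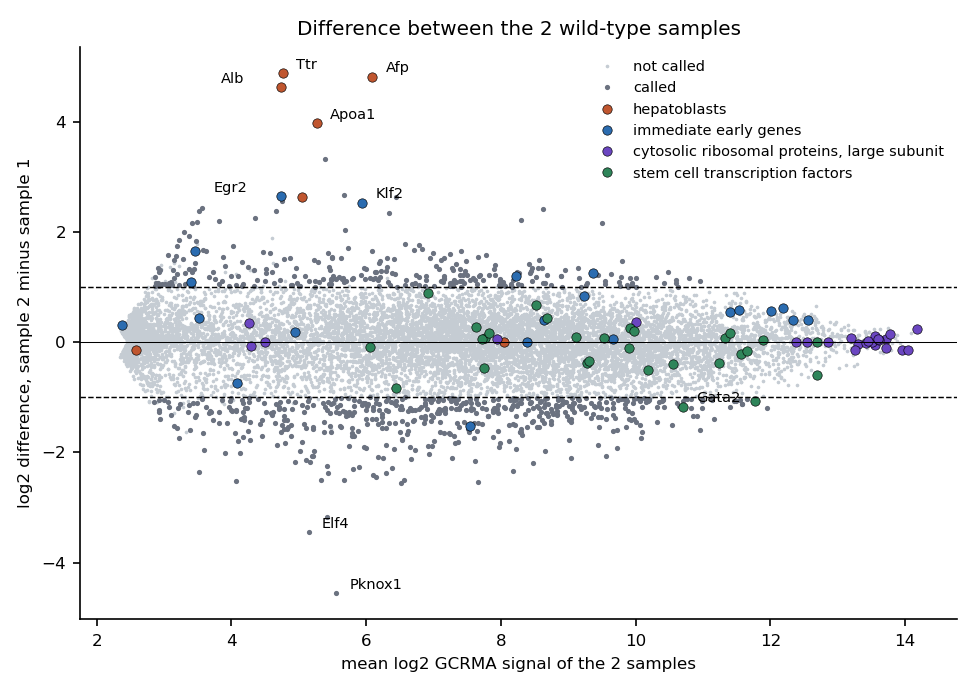
Difference in log2 signal, sample 2 minus sample 1, against the mean of the samples for the 11777 genes above background in at least 1 sample, with dashed lines at 1 and -1 and the genes of 4 lists coloured. Hepatoblast genes reach 4.89 (Ttr) and Pknox1 lies lowest at -4.55, while large-subunit ribosomal proteins stay near 0.

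Liver transcripts were near background in sample 1 and clearly above it in sample 2. Hepatoblasts, the epithelial precursors of hepatocytes that surround the stem cells in fetal liver, secrete the proteins these genes encode. Alb (albumin) gave 2.61 and 2.25 on the arrays of sample 1 and 6.89 and 7.23 on those of sample 2, and Afp (alpha-fetoprotein) 3.60 and 3.76 against 8.49 and 8.51. The differences were 4.63 for Alb and 4.82 for Afp, with no overlap. Ttr (transthyretin, a carrier of thyroid hormone) differed by 4.89 (2.32 and 7.21). The apolipoproteins Apoa1 (3.28 and 7.25), Apoa2 (3.74 and 6.37) and Apom (3.73 and 7.05) differed by 3.97, 2.63 and 3.32. All 4 probe sets of Apoa1 differed by at least 3.07, and 3 of 5 of Afp by at least 3.39. The differences of Apoa1 and Afp thus do not rest on single probe sets. Alb and Apoa2 had 1 probe set each, so theirs do.

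The hepatoblast list did not move as a whole. Of 10 listed genes 8 were measured, 7 of them above background in at least 1 sample. Of these 7, 5 were higher in sample 2 (Afp, Alb, Ttr, Apoa1 and Apoa2), where 2.36% of the 11777 genes were. Dlk1, a hepatoblast surface protein that blood progenitors can also express, read 8.04 and 8.05, Fgb (a fibrinogen chain) 2.65 and 2.52, and Ahsg (fetuin) 2.32 and 2.33 at background. The summed linear signal of the 8 genes was 338 and 304 on the arrays of sample 1 and 1214 and 1133 on those of sample 2. Most of the sum in sample 1 was Dlk1, which did not change. The median difference of the 7 members above background was 3.97, and 2.92 to 4.46 with any 1 array left out. The probe set that names Trf and Srprb read 6.64 and 7.23. Outside the list, other genes of secreted liver proteins were also counted as higher in sample 2. Among them were Fga, another fibrinogen chain, with a difference of 2.17, Kng1 with 2.18 and Serpina6 with 2.01. These genes were picked after their values were seen.

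The stretches before Alb and Afp, related genes that lie beside each other on chromosome 5, are shown as those of genes that moved together. They are at chr5:90460720-90460869 and chr5:90490564-90490713 on the plus strand of GRCm38.p6, and capitals mark CCAAT on either strand and, for Afp, a TATA motif.
Alb: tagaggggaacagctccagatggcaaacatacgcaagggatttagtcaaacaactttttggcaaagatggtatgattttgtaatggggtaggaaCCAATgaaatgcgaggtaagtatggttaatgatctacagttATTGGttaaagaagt
Afp: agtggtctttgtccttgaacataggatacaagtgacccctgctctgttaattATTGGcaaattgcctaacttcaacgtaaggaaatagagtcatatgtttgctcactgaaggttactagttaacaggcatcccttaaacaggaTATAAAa
The CpG ratio of the 300-base promoter was 0.272 for Alb and 0.250 for Afp. The median was 0.339 over genes at background, 0.389 over all 27025 promoters and 0.846 over genes of the high group. None of 7 hepatoblast promoters held a GC box, GGGCGG, which 35.9% of all promoters held.

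Immediate early genes, which growth factors and stress switch on without new protein synthesis, were mostly higher in sample 2. Of 22 measured, 20 exceeded the ceiling in both samples and 6 were high. Jund (12.36 and 12.76), Fos (12.14 and 12.54), Dusp1 (11.88 and 12.49) and Egr1 were brightest, and Fosl1 (2.22 and 2.54) and Egr3 (2.37 and 2.38) were lowest. Of 21 members above background 19 were higher in sample 2, with a median of 0.56 that ranged from 0.42 to 0.61 with any 1 array left out. By the rule 6 of the 22 were counted as higher and 1 as lower, where the shares over all 11777 genes were 2.36% and 4.35%. Klf2, a Kruppel-like factor, gave 4.98 and 4.37 against 6.89 and 7.54, a difference of 2.54. Egr2 differed by 2.65 (3.42 and 6.07) and at its second probe set by 1.91. Atf3, a factor of the stress response, differed by 1.65 (2.63 and 4.28), and Zfp36, which destabilizes mRNA, by 1.25. Nr4a2 (7.62 and 8.82) and Nr4a1 (2.84 and 3.94, difference 1.10) are orphan nuclear receptors. Fosl2 was the exception, with a difference of -1.52 (8.30 and 6.77).

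Genes outside these lists were also among those with the largest differences. Among the 12 genes with the largest excess in sample 2, beside those named, were Gm26910 (4.34 and 7.02), Mt2 (metallothionein, 5.13 and 7.77), Rnf225 (3.47 and 6.03) and Adm (adrenomedullin). Adm gave 6.83 and 2.73 on the arrays of sample 2 and 2.34 and 2.35 on those of sample 1, so its difference of 2.44 rests on array 1 of sample 2. In the other direction Pknox1 was followed by Elf4, an ETS factor, which gave 6.57 and 7.17 against 2.84 and 4.01, a difference of -3.45. Rab11fip1, a recycling endosome protein, differed by -3.17 (7.01 and 3.84), and Poglut3 by -2.55 (7.79 and 5.25). The remaining 8 of these 12, Sfswap, Pdzd2, Rsad2, Adarb1, Smtnl2, Dennd1c, Bbs5 and Smn1, differed by -2.53 to -2.37. For Pdzd2 (4.06 and 6.61 on the arrays of sample 1) and Bbs5 (6.21 and 3.57 on those of sample 2) repeat arrays differed by more than the samples. Second probe sets went the other way for Dennd1c (0.34), Rsad2 (0.47) and Smtnl2 (0.54), while that of Sfswap differed by -1.73. Smtnl2 was not called with 1 array left out.

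**Figure D4:**
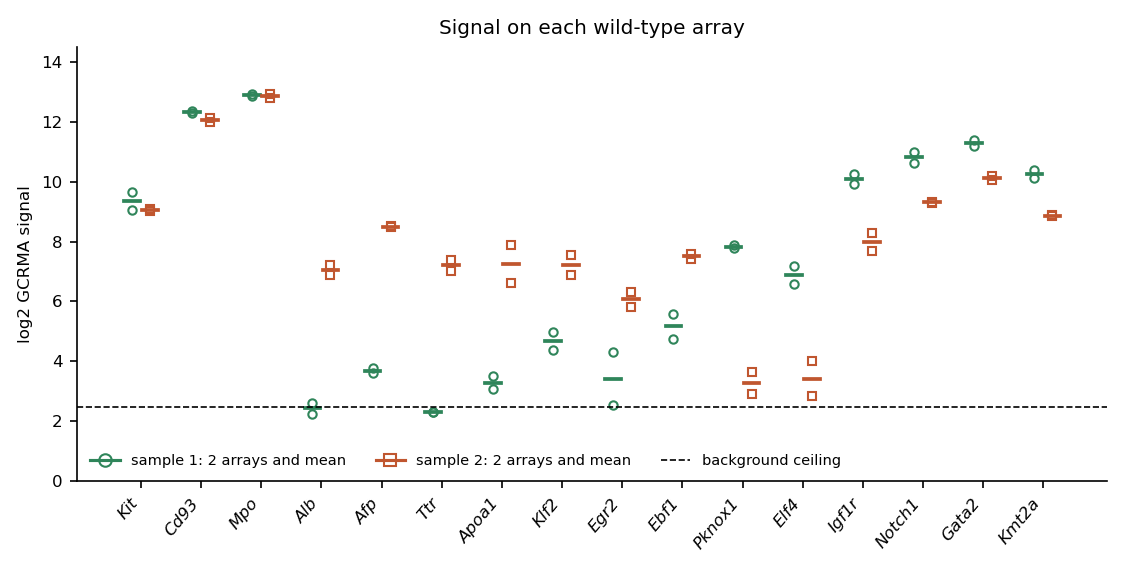
Log2 signal on each array for 16 genes, with open circles for the 2 arrays of sample 1, open squares for those of sample 2, bars for the sample means and a dashed line at the ceiling of 2.47. Mpo and Kit overlap between the samples, the liver genes Alb, Afp, Ttr and Apoa1 are higher in sample 2, and Pknox1, Elf4, Igf1r, Notch1, Gata2 and Kmt2a are lower.

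Among the genes of the lists that were counted as different, 13 lost that status with some single array left out: Hoxb4, Id2, Il7r, Il6st, Ifnar2, Notch3, Vmn2r29, Orc1, Tubb2a, Tubb2b, H1f2, Rbl2 and Nr4a2. Vmn2r29, a vomeronasal receptor, was the brightest of the sensory receptors at 4.72 and 3.61.

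Markers of other cell types ranged from background to high. The brightest with a probe set of their own were Tfrc, Csf1r and Tek, which stem or progenitor cells also express. For red cell precursors 2 of 6 exceeded the ceiling in both samples, Tfrc and Epor, and Slc4a1, Hba-a1, Klf1 and Alas2 read 2.52 or less. Hba-a2, which is not in this list, was bright, as given above. Hbb-bt, which is in the list, was not counted because its probe set also names other adult beta-globin genes. That probe set read 9.77 and 9.65. For macrophages 3 of 7 did, Csf1r, Cd68 (6.01 and 5.87) and C1qb (2.59 and 3.53), with Marco (2.39 and 2.39), Vcam1 (2.37 and 2.37) and C1qa (2.23 and 2.23) at background. The summed linear signal of the 7 macrophage genes was 1197 and 827 in sample 1 and 1706 and 1966 in sample 2, most of it Csf1r, and the median difference of the 4 above background was 0.82, or 0.38 without array 2 of sample 2. Granulocyte genes read at most 3.65 (S100a8, 3.65 and 2.77), and Itgam, Camp and S100a9 were at background. Of the platelet genes, Gp9 read 6.84 and 6.80, Vwf 4.03 and 4.79, and Pf4 2.73 and 2.94. Mast cell genes read at most 3.45, with Cpa3 at 2.92 and 3.45.

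For B cells, 4 of 5 genes were above background, with Cd79b and Ebf1 given above, Igll1 at 3.44 and 4.16 and Vpreb1 at 3.50 and 3.81. For T and NK cells 2 of 5 were, Nkg7 (7.05 and 7.02) and Cd4. Of 6 endothelial genes, Tek (9.29 and 8.88), which stem cells share, and Pecam1 (5.91 and 5.39) exceeded the ceiling in both samples, and Kdr, the main VEGF receptor, read 2.21 and 2.21. None of 6 stromal genes did so in both, and Cxcl12 read 2.29 and 2.29. The lists of red cell precursors, macrophages, granulocytes, megakaryocytes, mast cells, T and NK cells, endothelium and stroma held no gene that differed between samples. The B cell list held 1, Ebf1. Each of these lists had only 2 to 5 genes above background in at least 1 sample. Over all 11777 genes 2.36% were higher and 4.35% lower, so the lack of a call in such short lists says little.

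Promoters of bright genes were richer in CpG than those of genes at background, a property the ranking did not use. Promoters were matched for 14368 genes. The median ratio of observed to expected CpG over 300 bases was 0.846 for 1522 high genes, 0.759 for 7475 other genes above background in both samples, 0.546 for 592 genes above it in 1 sample and 0.339 for 4779 genes at background, against 0.389 for all 27025 promoters in the table. The GC box GGGCGG lay in 70.0% of promoters of high genes and 34.4% of those at background. The ETS-type motif CCGGAAGT lay in 9.59% and 1.44%, and TATAAA in 7.10% and 15.4%. CCAAT differed little, at 40.2% and 37.2%. The median GC content of the promoters was 62.3% for high genes and 53.7% for genes at background. Motif shares were not adjusted for it.

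The remaining motifs were rarer. The palindromic motif of nuclear respiratory factor 1 lay in 2.69% of high and 0.418% of background promoters, AAGATGGCG, of YY1, in 3.55% and 0.293%, and the cAMP response element TGACGTCA in 3.61% and 1.57%. AGATAA, the motif that zinc finger factors such as Gata2 bind, lay in 4.93% and 11.4%, and in 11.4% of all promoters. Families differed among themselves, with TATAAA in 33.3% of 21 promoters of granule proteins and in 2% of 50 of oxidative phosphorylation. Sensory receptor promoters had a median CpG ratio of 0.138. Motifs were searched on both strands and these can overlap in a promoter, and a match describes letters and not binding.

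**Figure D5:**
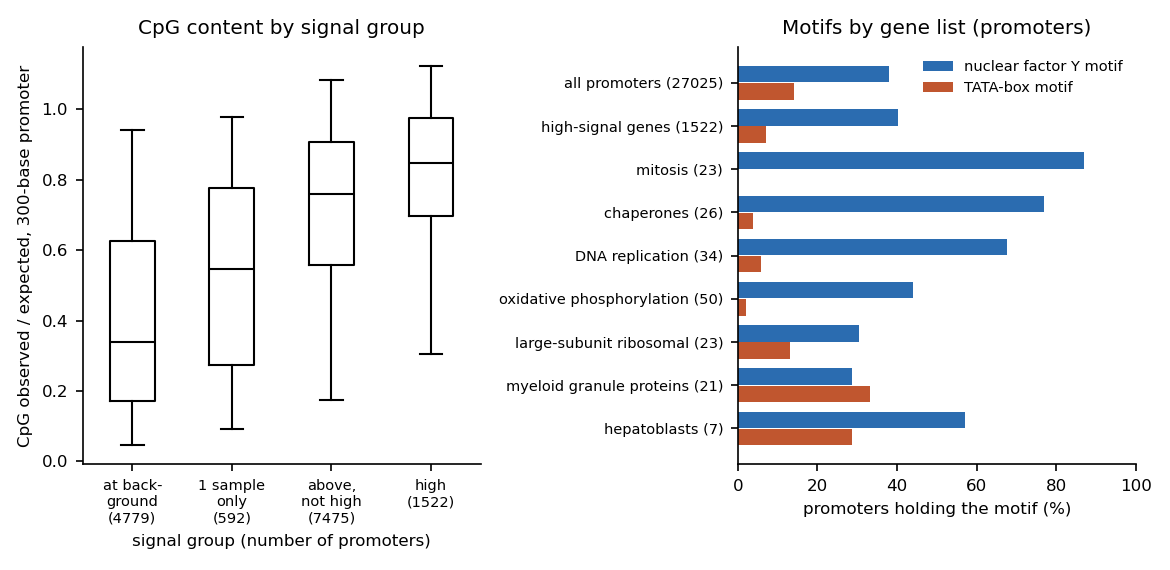
Left, ratio of observed to expected CpG in 300-base promoters by signal group, with boxes for quartiles, lines for medians and whiskers from the 5th to the 95th percentile. Right, share of promoters in each gene list that hold the nuclear factor Y motif or the TATA-box motif on either strand. Medians rise from 0.339 for genes at background to 0.846 for high genes, and the nuclear factor Y motif is held by 87.0% of mitotic promoters against 37.9% of all.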

How the data were processed

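Sorted fetal liver cells were measured on Affymetrix arrays. The values the authors deposited are log2 signals per probe set, made with GCRMA, which corrects background by probe sequence and normalizes arrays together, per the submitters' processing notes. Its release is not given in the sources used here. Over all 45101 probe sets the array medians were 2.68 to 2.70. The number of arrays limits the precision.

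Names came from the platform annotation and were checked through gene identifiers against RefSeq genes of GRCm38.p6 (34741 matched, 0 symbols changed). After 64 controls were removed, 34945 probe sets carried 1 symbol and gave 18193 genes, 932 carried several and named no gene, and 9160 had none listed. From there, sample means, ranks, background groups and differences were computed with Python 3.11.15, pandas 2.3.3 and numpy 2.4.6, and figures with matplotlib 3.10.9. The procedure was tested on simulated data. No p-values were computed, since each sample is a single value.

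The 42 gene lists and the genes described were chosen with earlier results of these data known. Named are the 4 highest and 2 lowest members of a list, up to 4 that differed between the samples, the sort genes, the 20 brightest genes, the 12 largest differences in each direction, and other probe sets of named genes where these disagree. Alternatives covered the ceiling, the choice of probe set, normalization, the size of a difference and the omission of each array or sample. Comparisons with Crebbp+/- were not made.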

Additional observations from a re-analysis of the deposited data

Results flagged for a closer look

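A probe set outside the gene ranking gave clear signal. It names the adult beta-globin genes Hbb-bt, Hbb-bs, Hbb-b2 and Hbb-b1 together and so was left out, and its mean log2 signal was 9.71, far above the background ceiling of 2.47. The arrays read 9.94 and 9.61 in sample 1 and 9.51 and 9.79 in sample 2, so the samples overlapped. Hbb-b2, read from a probe set of its own, gave 4.65 and 4.66.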

How the results depend on the processing

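The number of genes above background in both samples, 11009, ranged from 9574 to 11197 over the alternatives that kept both samples. With sample 1 alone 12064 genes were above background, and with sample 2 alone 10859. The number of lists with a median above percentile 50, 27 of 42, ranged from 25 to 28 over all alternatives. Counts of genes that differ between the samples depended more on the settings. When all probe sets of a gene were averaged, 126 genes were higher and 222 lower in sample 2, against 278 and 512. With a limit of 2 on the log2 scale the counts were 24 and 35, and with 0.6 they were 1067 and 1313. With 1 array left out, they ranged from 329 to 488 and from 615 to 658. Lists whose median difference exceeded 0.5 numbered 3, and 3 to 8 with 1 array left out. The CpG ratio of high minus background promoters was 0.507, and 0.512 with the last listed start, an alternative chosen after seeing the data. Counting probe sets with several symbols, chosen after seeing the data too, gave 11197 genes above background. Causes were not tested. No paired analysis was possible because no groups were compared and each sample is a single value. Dim genes limit the differences: 1655 genes above background lay under 4, where a small signal above background sets the size of a difference.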
